A study of Mus musculus with 4 samples.

Results

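In cultures grown from mouse intestinal crypts and given FGF2, 4 of 5 measured neutrophil-attracting chemokine genes had at least 2-fold higher signals when IL-17A was added. So did Il6, 3 of 17 antimicrobial and acute phase genes, among them Lcn2, and 3 of 6 small proline-rich protein genes. The other 3 of that family were below 0 on the log2 scale. Over all measured genes 0.367% were at least 2-fold higher. Markers of other cell types were measured too, and which cells held a transcript is not known. Of 19 lipid absorption and apolipoprotein genes 18 were lower, 4 of them at least 2-fold. Of 11 genes of bile acid handling 9 were lower, 2 of them at least 2-fold. Over all measured genes 47.1% were lower, and 0.269% at least 2-fold. Of the 33 genes at least 2-fold lower, only Apoa1, Apob and Tm4sf4 stayed so under all 5 alternative scalings and floors. The comparison is the array labelled IL-17A plus FGF2 minus the array labelled FGF2, so it takes 2 of the 4 arrays of the series. Both arrays were chosen from their labels and not from measured values. The other 2 arrays, labelled IL-17A and UN, give the IL-17A difference a second time, in cells without FGF2, and share no array with the first pair. In all, 12258 genes of 18193 were measured, which here means that the signal exceeded a floor of 89.8 on at least 1 of the 4 arrays.

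The cells were primary cultures grown from isolated mouse intestinal crypts on plates coated with fibronectin, and strain, sex, age and the number of animals are not given in the sources used here. The group IL-17A plus FGF2, whose array is called the combined array here, received both agents for 6 h, the group FGF2 received FGF2 for 6 h at 5 ng/ml, the group IL-17A received IL-17A for 6 h at 50 ng/ml, and the group UN received neither. The label of the combination restates no dose, and the study's design text gives 1 dose per agent. Each group is 1 array, so there are no replicates, no test was made between groups, and every fold below is a difference between single arrays.

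IL-17A is a cytokine of T helper 17 cells, gamma-delta T cells and innate lymphoid cells. It binds a receptor of the chains IL-17RA and IL-17RC, and the adaptor Act1, encoded by Traf3ip2, passes the signal to TRAF6 and so to NF-kB, MAP kinases and C/EBP factors. The same pathway lengthens the life of short-lived cytokine mRNAs. In the intestinal mucosa it is known for recruiting neutrophils, inducing antimicrobial proteins and supporting repair of the barrier. FGF2 is a growth factor that acts through receptor tyrosine kinases, the Ras and ERK cascade and its feedback inhibitors. The series asks how both agents act together on intestinal epithelium.

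In the presence of FGF2, 45 genes were at least 2-fold higher with IL-17A, which is 0.367% of the measured genes, and 33 were at least 2-fold lower, which is 0.269%. With quantile normalization of the arrays these counts were 49 and 23. Raising the floor to the 75th percentile of signals gave 25 and 9, and lowering it to the 25th percentile gave 282 and 279. Without FGF2, 46 genes (0.375%) passed the fold upwards and 28 (0.228%) downwards. Both pairs of arrays had 25 of the higher genes in common, which is 55.6% of the list with FGF2 and 54.4% of the list without it. They had 12 of the lower genes in common, which is 36.4% of the list with FGF2 and 42.9% of the list without it. No gene passed the fold in opposite directions (0 genes), against 22 genes with the floor at the 25th percentile. Over all measured genes the median log2 difference was 0.00 with FGF2, with 49.0% above 0 and 47.1% below, and -0.01 without FGF2, with 45.1% above 0 and 52.8% below.

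The arrays had been brought to 1 common level before deposit, with a 2% trimmed mean signal of 500 on each. The ratio of 3′ to 5′ signal lay between 1.18 and 1.25 for the Actb control probe sets and between 0.82 and 0.87 for those of Gapdh. General epithelial markers were all measured, 12 of 12, and their signals summed to 182742 on the combined array, 183330 on the FGF2 array, 178553 on the IL-17A array and 176208 on the UN array. Markers of other cells of the intestinal wall were measured too: 16 of 16 fibroblast genes summed to 95705 and 93942 on the combined and FGF2 arrays and to 110320 and 106873 on the IL-17A and UN arrays. In such mixed RNA, fewer cells of a type and less RNA per cell cannot be told apart, and which cells held a transcript was not measured.

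Chemokines that carry the ELR motif, which attract neutrophils through CXCR2, were the highest list. Of the 5 measured members 4 were at least 2-fold higher with FGF2 present and 5 of 5 were above 0, with a median log2 difference of 2.56. Cxcl5 had a signal of 4362 on the combined array against 373 on the FGF2 array, and 3878 on the IL-17A array against 315 on the UN array. Its fold was 11.7 with FGF2 and 12.3 without, so the 2 readings lay close together. Cxcl1 had signals of 11943 on the combined array against 1387 on the FGF2 array, and 4587 on the IL-17A array against 484 on the UN array. The fold of Cxcl1 was 8.61 with FGF2, and its 2 other probe sets over the floor gave log2 differences of 2.11 and 2.75. On the arrays without FGF2 the fold was 9.49.

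Cxcl2 reached 6656 on the combined array, against 1130 on the FGF2 array, while the IL-17A array had 969 against 232 on the UN array. Its folds were 5.89 with FGF2 and 4.17 without. For Cxcl2 the combined array was the highest of the 4 and the UN array the lowest, with the FGF2 array a little above the IL-17A array. Cxcl3 showed 534 on the combined array against 218 on the FGF2 array, and 312 on the IL-17A array against 163 on the UN array, folds of 2.45 with FGF2 and 1.91 without. Ppbp, which encodes platelet basic protein, gave 614 on the combined array against 446 on the FGF2 array, and 340 on the IL-17A array against 235 on the UN array, below the 2-fold line in both pairs.

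**Figure D1:**
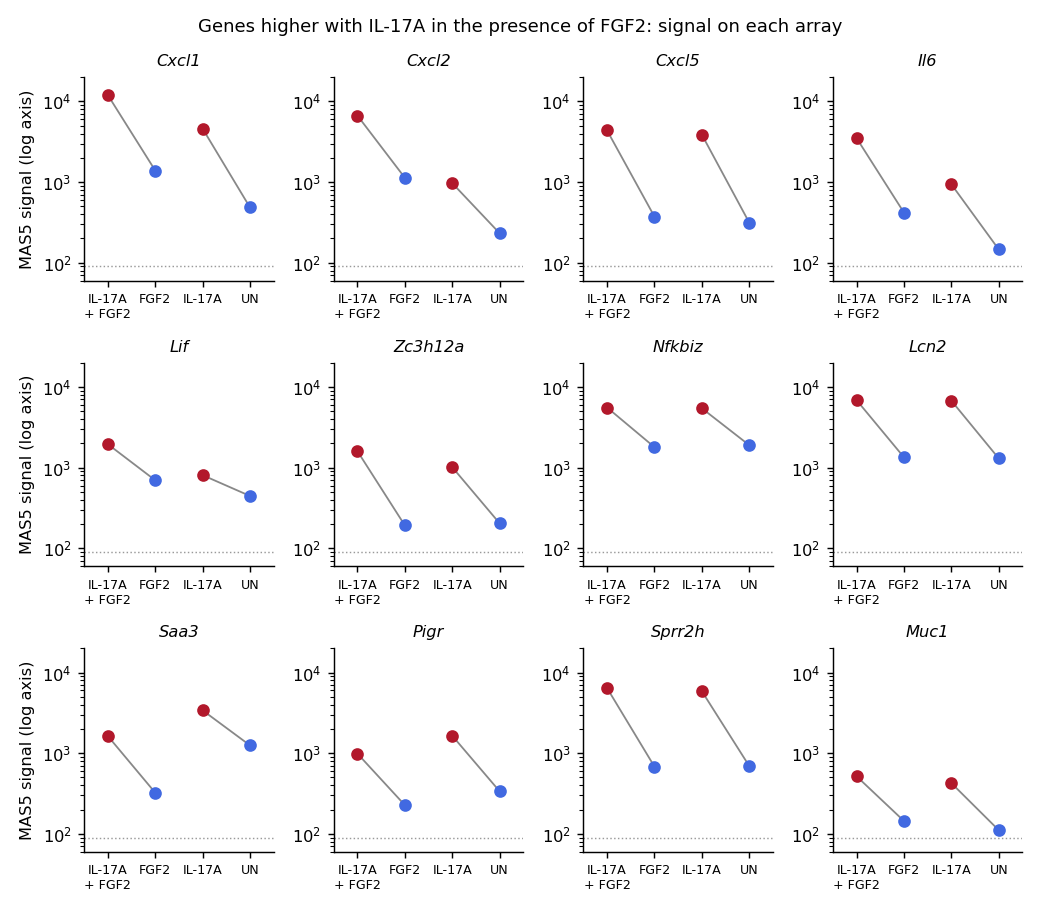
MAS5 signal (log axis) of 12 genes that were higher with IL-17A, on the 4 arrays from left to right: IL-17A plus FGF2, FGF2, IL-17A and UN, with red points for arrays with IL-17A, blue points for arrays without it, grey lines joining each pair and a dotted line at the floor of 89.8. The red point stands above its blue partner in both pairs of each panel, for example 4362 against 373 and 3878 against 315 for Cxcl5.

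The start regions of 3 of these chemokine genes are shown because they share 1 run of 11 letters that holds the NF-kB consensus. Promoter windows, 250 bases before to 50 after the start of each gene, came from RefSeq on the build GRCm38.p6, and 21 of the 25 genes at least 2-fold higher in both pairs had a window. The stretches below run from 100 bases before the start to 20 after it, on the plus strand, and the capitals mark the shared run. They lie at chr5:90891145-90891264 for Cxcl1, chr5:90903799-90903918 for Cxcl2 and chr5:90786001-90786120 for Cxcl3.
Cxcl1: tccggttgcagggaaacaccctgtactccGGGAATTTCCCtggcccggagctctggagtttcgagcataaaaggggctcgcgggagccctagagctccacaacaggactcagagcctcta
Cxcl2: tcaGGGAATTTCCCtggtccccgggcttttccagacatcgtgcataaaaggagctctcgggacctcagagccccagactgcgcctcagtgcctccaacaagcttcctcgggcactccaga
Cxcl3: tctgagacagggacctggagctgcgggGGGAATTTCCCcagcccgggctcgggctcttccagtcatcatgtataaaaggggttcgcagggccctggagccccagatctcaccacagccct
The run GGGAATTTCCC begins 71 bases before the start in Cxcl1, 97 before it in Cxcl2 and 73 before it in Cxcl3. Cxcl3 passed the fold in the pair of arrays with FGF2 but not in the pair without it. A letter match describes the sequence and does not show that a factor binds there.

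The NF-kB consensus, searched on both strands, was in 5 of the 21 genes with a window (23.8%), counting a match in any window of a gene. This compares with 6.38% of the 9872 measured genes with a window and 5.14% of all 27025 genes with one. The C/EBP letters TTGCNNAA were in 6 of 21 (28.6%), against 9.93% of the measured genes and 12.2% of all genes with a window. The AP-1 letters TGANTCA were in 8 of 21 (38.1%), against 6.5% and 8.97%. Among the 33 lower genes, 25 had a window, and the shares were 20% for NF-kB, 20% for C/EBP and 8.0% for AP-1. The sets are small and their members include neighbouring copies of related genes, so these shares were not tested.

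Il6, the cytokine that drives the acute phase response, had a signal of 3491 on the combined array against 417 on the FGF2 array, and 937 on the IL-17A array against 146 on the UN array. Its folds were 8.37 with FGF2 and 6.41 without. The combined array was the highest of the 4, and the UN array the lowest. The window of Il6 is shown because it holds all 3 motifs, as does that of Clca3a2, which is not printed here. It lies at chr5:30012864-30013163, plus strand, with the AP-1 match TGAGTCA, the C/EBP match TTGTGCAA and the NF-kB match in capitals from left to right.
Il6: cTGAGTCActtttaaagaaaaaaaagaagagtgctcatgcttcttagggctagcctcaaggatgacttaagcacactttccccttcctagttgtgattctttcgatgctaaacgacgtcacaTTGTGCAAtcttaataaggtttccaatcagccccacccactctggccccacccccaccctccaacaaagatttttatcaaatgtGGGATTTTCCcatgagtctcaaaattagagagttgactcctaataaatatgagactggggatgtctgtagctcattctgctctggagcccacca
The 3 matches begin 249, 128 and 44 bases before the start.

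Lif, a cytokine of the Il6 family, was 2.80-fold higher with FGF2, at 1950 on the combined array against 696 on the FGF2 array, and 1.81-fold without it, at 806 on the IL-17A array against 445 on the UN array. A second, dimmer probe set of Lif gave log2 differences of 0.75 with FGF2 and 0.66 without, below the 2-fold line in both pairs. Il11, another family member with roles in stromal and epithelial repair, passed the fold without FGF2 but not with it. Its signals were 15870 on the combined array against 13544 on the FGF2 array, and 3016 on the IL-17A array against 1404 on the UN array, folds of 1.17 with FGF2 and 2.15 without. The FGF2 array was already far above the IL-17A array for Il11. Of the 5 measured family members 2 were at least 2-fold higher with FGF2, with a median log2 difference of 0.25.

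Among colony-stimulating factors and TNF family ligands, 2 of 7 measured members passed the fold upwards with and without FGF2. Csf3, the growth factor of neutrophils, had 280 on the combined array against 123 on the FGF2 array, and 214 on the IL-17A array against 98.1 on the UN array, folds of 2.28 with FGF2 and 2.18 without. Tnf had 249 on the combined array against 110 on the FGF2 array, a fold of 2.27, and 209 on the IL-17A array against a floored signal on the UN array, at least 2.33-fold. Both genes stood near the floor on the arrays without IL-17A. The other 5 members ranged from -0.31 to 0.02 on the log2 scale, and the list's median of -0.08 was close to that of all measured genes.

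Among CC chemokines 2 of 11 measured members were at least 2-fold higher with FGF2, with a median log2 difference of 0.46. Ccl2, which attracts monocytes through CCR2, had 1786 on the combined array against 597 on the FGF2 array, and 1216 on the IL-17A array against 629 on the UN array, folds of 2.99 with FGF2 and 1.93 without. Ccl7, a related monocyte attractant, had 543 on the combined array against 216 on the FGF2 array, and 497 on the IL-17A array against 189 on the UN array, folds of 2.52 with FGF2 and 2.63 without. Ccl20, the ligand of CCR6, was listed under the floor on both arrays with FGF2. Without FGF2 it had 197 on the IL-17A array against a floored signal on the UN array, at least 2.19-fold. CXC and CX3C chemokines without the ELR motif had 0 of 7 members past the fold, and their log2 differences ranged from -0.32 for Cxcl16 to 0.46 for Pf4.

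Antimicrobial and acute phase genes had 3 of 17 measured members at least 2-fold higher with FGF2 and a median log2 difference of 0.24. Lcn2, whose product withholds iron by binding bacterial siderophores, had 6843 on the combined array against 1339 on the FGF2 array, and 6751 on the IL-17A array against 1300 on the UN array. Its folds, 5.11 with FGF2 and 5.19 without, were nearly equal. Saa3, an acute phase serum amyloid, had 1627 on the combined array against 323 on the FGF2 array, and 3397 on the IL-17A array against 1249 on the UN array. The fold of Saa3 was 5.03 with FGF2 and 2.72 without, while both of its signals were lower on the arrays with FGF2. S100a8, a subunit of calprotectin, had 3740 on the combined array against 1348 on the FGF2 array, and 717 on the IL-17A array against 419 on the UN array, folds of 2.77 with FGF2 and 1.71 without.

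Cp, which encodes the ferroxidase ceruloplasmin, gave log2 differences of 0.95 with FGF2 and 1.38 without. Reg3b, a C-type lectin made by epithelium, had 624 on the combined array against 756 on the FGF2 array, and 945 on the IL-17A array against 2151 on the UN array, so its 2.28-fold lower signal without FGF2 had a counterpart of 1.21-fold with FGF2. Camp, the cathelicidin gene, was 2.17-fold higher with FGF2, at 270 on the combined array against 125 on the FGF2 array. S100a8 and Camp are also neutrophil markers. Of 10 neutrophil markers with a gene on the array 4 were measured, summing to 4912 and 2293 on the combined and FGF2 arrays and to 1833 and 1434 on the IL-17A and UN arrays. All 4 measured markers were above 0 with FGF2, 2 of them at least 2-fold higher, with a median log2 difference of 0.79. Without FGF2, 2 were above 0 and 1 below, with none past the fold and a median of 0.39. The markers S100a9, Mpo, Elane, Ngp, Csf3r and Cxcr2 were under the floor on all 4 arrays. The part of neutrophils in these differences was not tested.

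The window of Lcn2 is shown because its signals were nearly equal with and without FGF2 and its fold was among the highest. It lies at chr2:32387690-32387989 on the minus strand, and the capitals mark a C/EBP match that begins 216 bases before the start.
Lcn2: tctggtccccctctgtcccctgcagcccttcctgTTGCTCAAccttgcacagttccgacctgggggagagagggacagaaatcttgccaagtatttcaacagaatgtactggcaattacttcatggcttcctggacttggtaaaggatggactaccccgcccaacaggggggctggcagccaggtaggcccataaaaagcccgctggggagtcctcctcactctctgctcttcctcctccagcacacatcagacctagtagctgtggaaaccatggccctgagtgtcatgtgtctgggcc
No match to the letters of the other motifs is in this window.

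Genes of epithelial barrier defence had 4 of 8 measured members at least 2-fold higher with FGF2, and the list's median log2 difference was 0.97. Pigr, the receptor that carries IgA across the epithelium, had 986 on the combined array against 227 on the FGF2 array, and 1647 on the IL-17A array against 337 on the UN array, folds of 4.34 with FGF2 and 4.89 without, and its other probe set gave a log2 difference of 1.90 with FGF2. Steap4, a metalloreductase, had 357 on the combined array against a floored signal on the FGF2 array, at least 3.98-fold, and 535 on the IL-17A array against 151 on the UN array, a fold of 3.55. Muc1, a transmembrane mucin, was 3.59-fold higher with FGF2 and 3.82-fold higher without. Noxo1, the organizer subunit of the epithelial NADPH oxidase, was 2.55-fold higher with FGF2, at 1583 on the combined array against 621 on the FGF2 array, and 3.23-fold without. Muc1 was the 1 gene of 7 measured mucins past the fold, and Muc2, the secreted gel-forming mucin, had 2335 on the combined array against 2870 on the FGF2 array.

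Small proline-rich proteins, which are crosslinked into the envelope of keratinocytes and are also made by stressed gut epithelium, had 3 of 6 measured members past the fold. Sprr2h had 6415 on the combined array against 682 on the FGF2 array, and 5874 on the IL-17A array against 695 on the UN array, folds of 9.41 with FGF2 and 8.45 without. Sprr2f had 6091 on the combined array against 1045 on the FGF2 array, and 3590 on the IL-17A array against 768 on the UN array, folds of 5.83 with FGF2 and 4.68 without. Sprr2d had 587 on the combined array against 90.5 on the FGF2 array, a fold of 6.48, and 417 on the IL-17A array against a floored signal on the UN array. The probe set of Sprr2h can detect related transcripts, as can those of Cxcl1, S100a8, Apoa1 and Hpgd, so these signals may not be specific to 1 gene. Sprr1a and Sprr2k were not past the fold, with log2 differences of -0.15 and -0.03. The family's median of 1.26 therefore sits between members far above 0 and members near it, and it was -0.03 when probe sets open to related transcripts were left out and -0.02 with a lower floor.

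Stretches upstream of the 3 genes are shown because each holds an AP-1 match, in capitals, at a similar place. They run from 250 to 131 bases before the start on the plus strand, at chr3:92338890-92339009 for Sprr2d, chr3:92364937-92365056 for Sprr2f and chr3:92385435-92385554 for Sprr2h.
Sprr2d: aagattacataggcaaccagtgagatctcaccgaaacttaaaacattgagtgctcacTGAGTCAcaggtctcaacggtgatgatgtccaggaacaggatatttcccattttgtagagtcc
Sprr2f: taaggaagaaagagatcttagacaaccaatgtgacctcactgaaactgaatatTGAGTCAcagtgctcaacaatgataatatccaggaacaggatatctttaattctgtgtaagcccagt
Sprr2h: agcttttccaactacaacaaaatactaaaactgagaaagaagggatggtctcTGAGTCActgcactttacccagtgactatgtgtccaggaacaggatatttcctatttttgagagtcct
The match TGAGTCA begins 193 bases before the start in Sprr2d, 197 in Sprr2f and 198 in Sprr2h.

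Other genes higher in both pairs included Clca3b, Clca3a2 and Plet1. Clca3b, of the calcium-activated chloride channel regulator family, had 2554 on the combined array against 648 on the FGF2 array, and 2784 on the IL-17A array against 637 on the UN array, folds of 3.94 with FGF2 and 4.37 without. Clca3a2 was 2.98-fold higher with FGF2 and 3.19-fold without. Its other probe set, close to the floor, gave a log2 difference of at least 0.17 with FGF2, from a floored signal on the FGF2 array. Plet1, an epithelial surface protein gene, had 6827 on the combined array against 2315 on the FGF2 array, and 6783 on the IL-17A array against 2413 on the UN array, folds of 2.95 with FGF2 and 2.81 without, and one of its other probe sets gave a log2 difference of 1.29 with FGF2. The third probe set of Plet1 was under the floor on both arrays with FGF2 and gave a log2 difference of 0.11 without FGF2, at 99.8 on the IL-17A array against 92.7 on the UN array. By their brightest probe sets these 3 genes gave much the same signals whether or not FGF2 was present.

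Prl2a1, of the prolactin family, had 3289 on the combined array against 417 on the FGF2 array, and 3451 on the IL-17A array against 512 on the UN array, folds of 7.90 with FGF2 and 6.74 without. Il13ra2, the decoy receptor for IL-13, had 610 on the combined array against 269 on the FGF2 array, and 344 on the IL-17A array against 157 on the UN array, folds of 2.27 with FGF2 and 2.19 without. Ifitm1, an interferon-induced transmembrane protein, had 1080 on the combined array against 453 on the FGF2 array, and 3791 on the IL-17A array against 1882 on the UN array. The fold of Ifitm1 was close to 2 in both pairs, at 2.39 with FGF2 and 2.02 without, although its signals were lower on the arrays with FGF2.

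Zc3h12a and Nfkbiz were the highest regulators of cytokine mRNA decay and of NF-kB. Zc3h12a, which encodes the ribonuclease Regnase-1 that degrades cytokine mRNAs, had 1595 on the combined array against 192 on the FGF2 array, and 1013 on the IL-17A array against 204 on the UN array. Its folds were 8.32 with FGF2 and 4.97 without. Its other probe set had 95.2 on the combined array against a floored signal on the FGF2 array, a log2 difference of at least 0.08. Nfkbiz, which encodes the nuclear NF-kB cofactor I-kappa-B-zeta, had 5565 on the combined array against 1794 on the FGF2 array, and 5447 on the IL-17A array against 1901 on the UN array, folds of 3.10 with FGF2 and 2.87 without. Its other probe sets ranged from -0.26 to 0.98, so the probe sets of Nfkbiz did not all point the same way. Of the 45 higher genes 13 had other probe sets over the floor on at least 1 array with FGF2, and in 2 of these, Nfkbiz and Gfra2, at least 1 pointed the other way.

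NF-kB inhibitors and feedback genes had a median log2 difference of 0.25 with FGF2, which was -0.03 when the probe sets of each gene were averaged, and Nfkbiz was the 1 of 17 past the fold. Tnfaip3, the deubiquitinase A20, had 2529 on the combined array against 1454 on the FGF2 array, and 2532 on the IL-17A array against 1449 on the UN array, a log2 difference of 0.80 in both pairs. Sod2, the mitochondrial superoxide dismutase, gave 0.73 with FGF2 and 0.60 without. Nfkbia, which encodes I-kappa-B-alpha, gave 0.25 with FGF2 and 0.20 without, and its 4 other probe sets ranged from 0.14 to 0.38. The 4 measured NF-kB subunit genes ranged from -0.31 to 0.05.

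None of the receptor pathway's own genes passed the fold. Over all measured genes only 0.367% passed it upwards and 0.269% downwards. A count of 0 therefore says little for a list of this length, here and in the other lists. IL-17 receptor chains and adaptors had 0 of 23 measured members past the fold and a median log2 difference of 0.05, with a range from -0.43 to 0.45. Il17ra had 448 on the combined array against 430 on the FGF2 array, and 385 on the IL-17A array against 394 on the UN array. Traf3ip2 had 846 on the combined array against 645 on the FGF2 array, and 855 on the IL-17A array against 651 on the UN array, a log2 difference of 0.39 in both pairs. Il17rd, a receptor family member that also inhibits FGF signalling, gave 0.45 with FGF2 and -0.12 without. The C/EBP, AP-1 and ATF factors had 0 of 16 members past the fold, with Cebpd at 0.42 with FGF2 and 0.50 without, and Cebpb at 0.22 with FGF2 and 0.29 without. Socs3, the feedback inhibitor of STAT3, gave 0.64 with FGF2 and 0.42 without.

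FGF signalling genes were examined because FGF2 was present on both arrays of the first pair. FGF and ERK feedback genes had 0 of 18 measured members past the fold, with a median log2 difference of 0.06 and a range from -0.36 for Spry1 to 0.45. Dusp6, a phosphatase that inactivates ERK, had 6752 on the combined array against 6990 on the FGF2 array. Fgfr1 had 2183 on the combined array against 2166 on the FGF2 array. In the list of FGF receptors, ligands and intracellular signalling proteins such as Frs2 and Grb2, 1 of 18 measured members was past the fold. This was Fgf15, described with the bile acid genes.

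Matrix metalloproteinases and their inhibitors had 0 of 15 measured members past the fold, and 11 of 15 were above 0 with a median log2 difference of 0.32, against 0.05 without FGF2. Mmp9, a gelatinase, had 952 on the combined array against 494 on the FGF2 array, and 124 on the IL-17A array against 109 on the UN array. Mmp13, a collagenase, had 9027 on the combined array against 5639 on the FGF2 array, and 1674 on the IL-17A array against 1398 on the UN array. On all 4 of these comparisons the array with IL-17A was the higher, and none of the log2 differences reached 1: they were 0.95 with FGF2 and 0.19 without for Mmp9, and 0.68 with FGF2 and 0.26 without for Mmp13. Cemip, which degrades hyaluronan, had 4382 on the combined array against 2777 on the FGF2 array, a fold of 1.58, and 598 on the IL-17A array against 268 on the UN array, a fold of 2.23. Arg2, the mitochondrial arginase, had 1458 on the combined array against 796 on the FGF2 array, and 258 on the IL-17A array against 176 on the UN array.

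Of the 33 genes at least 2-fold lower with IL-17A 11 belonged to a list, mostly of absorptive epithelium. At a fold of 3, 17 genes were higher and 1 was lower with FGF2 present. Apoa1, Apob and Tm4sf4 were the 3 of the 33 that passed the fold under all 5 alternative scalings and floors, against 22 of the 45 higher genes. Lipid absorption and apolipoprotein genes had 4 of 19 measured members at least 2-fold lower with FGF2 and 18 of 19 below 0, with a median log2 difference of -0.46. Apoa1, the main apolipoprotein of high-density lipoprotein, had 5006 on the combined array against 10645 on the FGF2 array, and 6771 on the IL-17A array against 12845 on the UN array. It was 2.13-fold lower with FGF2 and 1.90-fold lower without, and its 3 other probe sets gave log2 differences from -1.20 to -1.09 with FGF2. Apob, the scaffold of chylomicrons, had 826 on the combined array against 1827 on the FGF2 array, and 998 on the IL-17A array against 2765 on the UN array, and was 2.21-fold lower with FGF2 and 2.77-fold lower without. The other probe set of Apob gave -0.05 with FGF2, close to the floor at 91.2 on the combined array against 94.7 on the FGF2 array.

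Fabp2, the intestinal fatty acid binding protein, had 910 on the combined array against 1827 on the FGF2 array, and 1347 on the IL-17A array against 3058 on the UN array, and was 2.01-fold lower with FGF2 and 2.27-fold lower without. Creb3l3, a membrane-bound transcription factor of liver and gut, had 152 on the combined array against 314 on the FGF2 array, 2.06-fold lower, and 275 on the IL-17A array against 364 on the UN array, 1.33-fold lower. Apoa4 gave log2 differences of -0.93 with FGF2 and -0.88 without, and Mttp, which loads lipid on Apob, gave -0.88 with FGF2 and -0.81 without. Scarb1, a lipoprotein receptor, was the 1 member above 0, at 0.50 with FGF2.

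**Figure D2:**
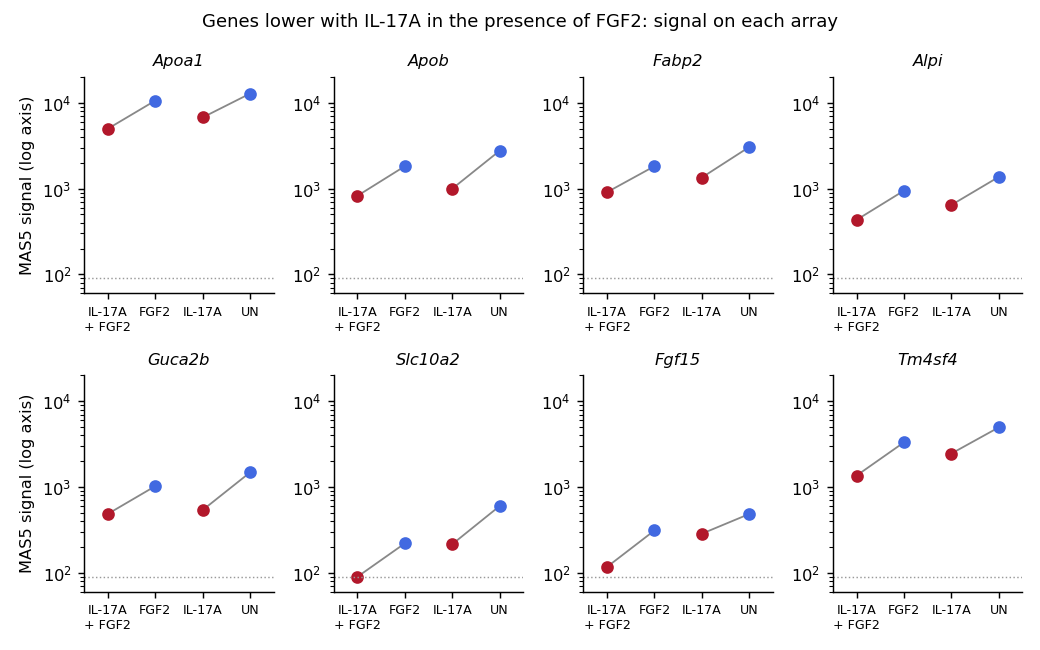
MAS5 signal (log axis) of 8 genes that were lower with IL-17A, on the 4 arrays from left to right: IL-17A plus FGF2, FGF2, IL-17A and UN, with red points for arrays with IL-17A, blue points for arrays without it, grey lines joining each pair and a dotted line at the floor of 89.8. The red point stands below its blue partner in both pairs of each panel, for example 5006 against 10645 and 6771 against 12845 for Apoa1, and Slc10a2 lies at the floor on the combined array.

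Genes of ileal bile acid handling had 2 of 11 measured members at least 2-fold lower with FGF2 and 9 of 11 below 0, with a median log2 difference of -0.58. Slc10a2, the transporter that takes bile acids up from the ileal lumen, was floored on the combined array against 220 on the FGF2 array, at least 2.45-fold lower. Without FGF2 it had 215 on the IL-17A array against 599 on the UN array, 2.78-fold lower. Fgf15, the hormone by which the ileum reports bile acids to the liver, had 117 on the combined array against 311 on the FGF2 array, and 285 on the IL-17A array against 484 on the UN array, 2.65-fold lower with FGF2 and 1.70-fold lower without. Slc51a, a subunit of the basolateral bile acid exporter, gave -0.93 with FGF2 and -1.06 without. Nr1h4, which encodes the bile acid receptor FXR, gave -0.53 with FGF2 and -0.51 without.

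Brush border hydrolases and transporters had 1 of 17 measured members past the fold and 14 of 17 below 0, with none above it (0 of 17) and a median of -0.45. Alpi, the intestinal alkaline phosphatase, had 433 on the combined array against 948 on the FGF2 array, and 645 on the IL-17A array against 1371 on the UN array, and was 2.19-fold lower with FGF2 and 2.12-fold lower without. Slc6a19, a transporter of neutral amino acids, gave -1.0 with FGF2 and -0.54 without, and Mgam, maltase-glucoamylase, -0.90 with FGF2 and -1.03 without. Guca2b, the hormone uroguanylin, had 486 on the combined array against 1023 on the FGF2 array, and 538 on the IL-17A array against 1479 on the UN array, and was 2.10-fold lower with FGF2 and 2.75-fold lower without. Cyp3a11, a drug-metabolizing cytochrome, had 135 on the combined array against 282 on the FGF2 array, and 133 on the IL-17A array against 485 on the UN array, and was 2.09-fold lower with FGF2 and 3.65-fold lower without. Hpgd, which inactivates prostaglandin E2, had 497 on the combined array against 1060 on the FGF2 array. It had 1028 on the IL-17A array against 2224 on the UN array, and was 2.13-fold lower with FGF2 and 2.16-fold lower without. Its other probe set gave a log2 difference of -0.87 with FGF2, a lower bound in size because the combined array was floored.

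Enterocyte markers had lower signals as well. Of 26 measured markers 7 were at least 2-fold lower with FGF2, 24 were below 0 and none was above it (0 of 26), with a median log2 difference of -0.58. The list overlaps those of lipid, bile acid and brush border genes. Its signals summed to 20886 on the combined array against 35913 on the FGF2 array, and to 26406 on the IL-17A array against 46087 on the UN array. The enterocyte markers Fabp1, Lct, Treh and Slc2a5 were under the floor on all 4 arrays. General epithelial markers had a median of -0.02, ranging from -0.36 for Vil1 to 0.11 for Cdh1. Goblet markers had a median of -0.07 with 0 of 13 past the fold, and Paneth markers a median of -0.05 with 0 of 6 past it.

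Beside these lists, fibroblast markers had a median log2 difference of -0.02 with FGF2, macrophage markers 0.06 and endothelial markers 0.10. Smooth muscle markers had 9 of 10 below 0 with FGF2 and a median of -0.21, and summed to 26281 on the combined array against 28537 on the FGF2 array and to 41300 on the IL-17A array against 40920 on the UN array. T cell and innate lymphoid markers had 3 of 10 measured, and the T cell receptor genes Cd3e, Cd3d and Cd3g were under the floor on all 4 arrays. The part of these cell types in the gene differences was not tested.

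**Figure D3:**
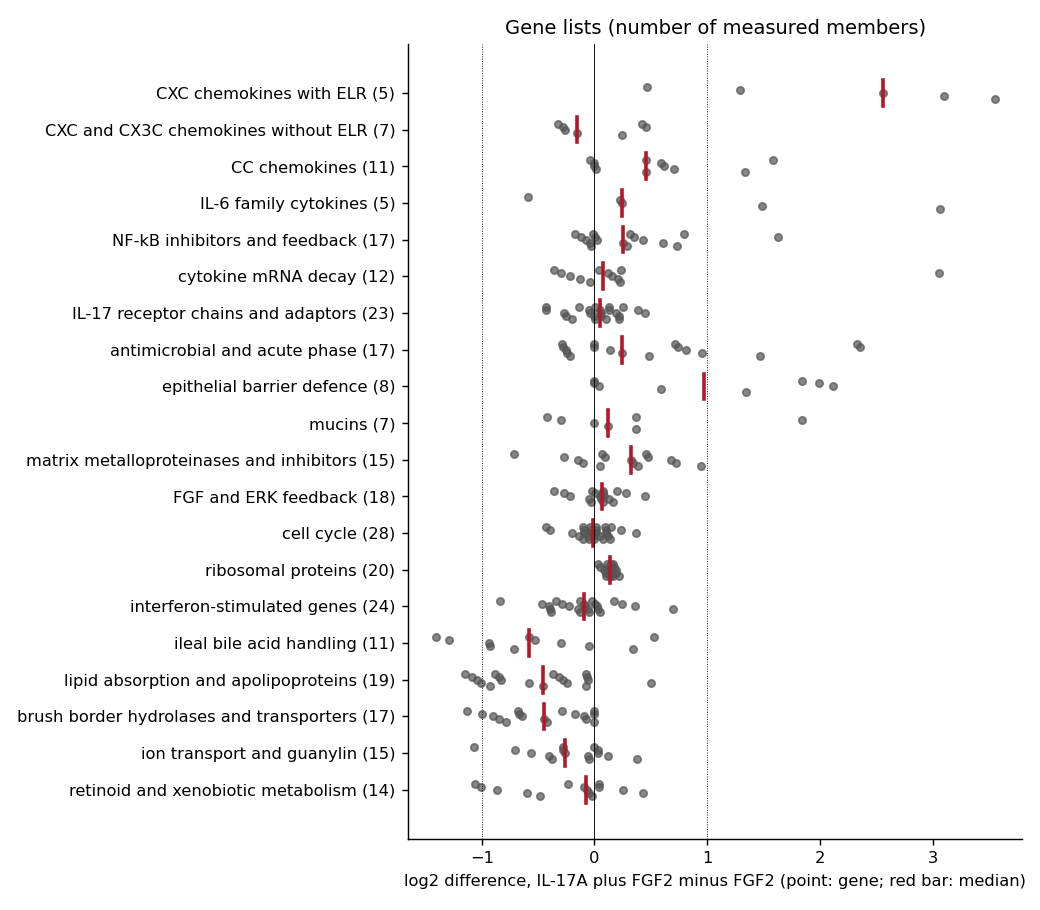
Log2 difference, IL-17A plus FGF2 minus FGF2, of each measured gene (grey points) in 20 of the gene lists, with red bars at the list medians, a solid line at 0 and dotted lines at 2-fold. CXC chemokines with ELR have the highest median of the lists drawn, 2.56, and ileal bile acid handling the lowest, -0.58.

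Lower genes outside these lists included Tm4sf4, a tetraspanin-like membrane protein, with 1361 on the combined array against 3323 on the FGF2 array, and 2456 on the IL-17A array against 4959 on the UN array, 2.44-fold lower with FGF2 and 2.02-fold lower without. Pkp1, a desmosomal plaque protein, had 125 on the combined array against 291 on the FGF2 array, 2.33-fold lower, and a floored signal on the IL-17A array against 274 on the UN array, at least 3.05-fold lower. Rab30, a small GTPase of the Golgi, was 2.17-fold lower with FGF2 and 2.41-fold lower without. Pnliprp2, a lipase, had 1138 on the combined array against 2311 on the FGF2 array, 2.03-fold lower, and its other probe set gave -1.29. Of the 33 lower genes 7 had other probe sets over the floor, and 0 of these genes had one that pointed the other way.

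Genes past the fold with FGF2 were set against the pair without it by brightness. Where the brighter array of the pair had a signal of at least 2048, all 14 higher genes were above 0 without FGF2 as well, and 11 of them were again at least 2-fold higher. For signals of 512 to 2048 this held for 18 of 19, with 10 again past the fold. Below 512 it held for 7 of 12, with 4 past the fold. Over all measured genes without FGF2, 45.1% were above 0 and 52.8% below, with 0.375% at least 2-fold higher and 0.228% lower. Among the lower genes, 3 of 3, 9 of 9 and 14 of 21 were below 0 without FGF2 in the same order of brightness, and 1, 6 and 5 passed the fold. The difference between both readings of IL-17A had a median size of 0.09, 0.13 and 0.22 on the log2 scale in the 3 classes from bright to dim, and a 99th percentile of 0.48, 0.72 and 1.13. Within genes that have several probe sets, the log2 difference had an SD between probe sets of 0.24 with FGF2 and 0.21 without, over 4676 genes.

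**Figure D4:**
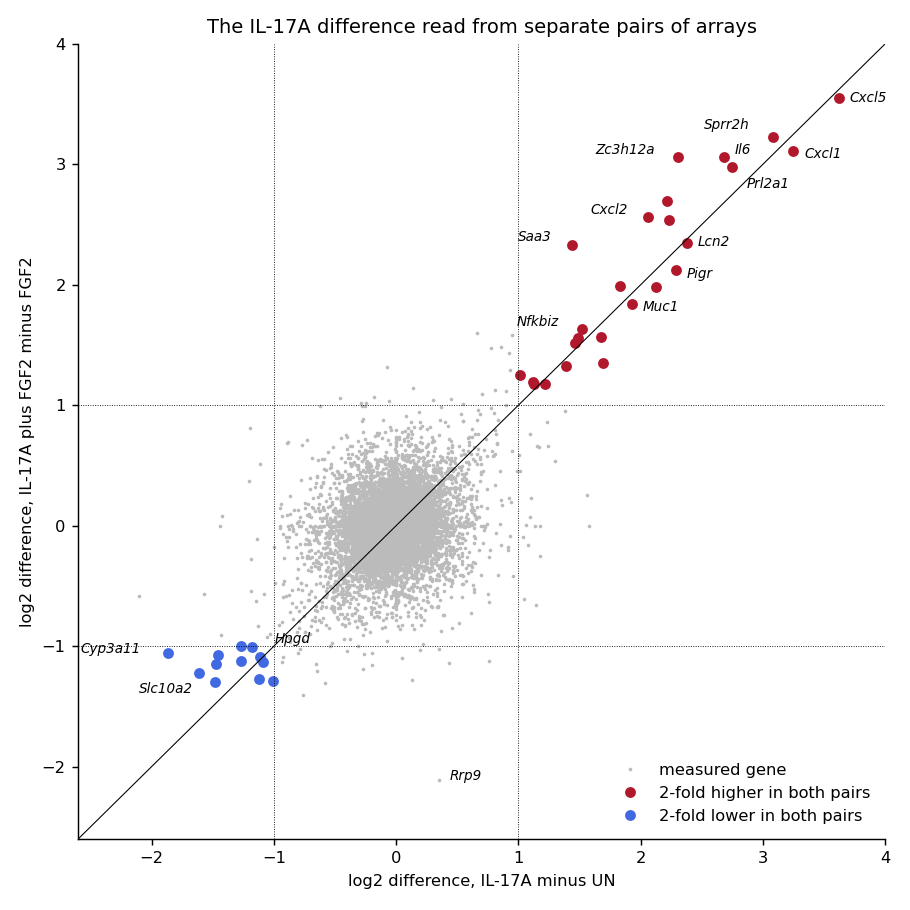
Log2 difference of each measured gene, IL-17A plus FGF2 minus FGF2 (vertical) against IL-17A minus UN (horizontal), with 25 genes at least 2-fold higher in both pairs in red, 12 at least 2-fold lower in both in blue, dotted lines at 2-fold and a diagonal line of equal difference. Red and blue genes were chosen for passing the fold the same way in both pairs, so they can lie only in those corners. Rrp9 lies far below the diagonal at -2.11 with FGF2 and 0.35 without.

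Several genes past the fold with FGF2 had no such difference without it. Rrp9, a nucleolar protein of ribosomal RNA processing, had 90.8 on the combined array against 391 on the FGF2 array, and 389 on the IL-17A array against 305 on the UN array, so the combined array alone was low. It was the lowest gene of the comparison, 4.31-fold lower, and its signal on the combined array was just over the floor. Dact2, Tmem102 and Ces5a were likewise lower with FGF2, with log2 differences of -1.14, -1.28 and -1.13, and above 0 without it, at 0.43, 0.13 and 0.76. The probe set of Ces5a can detect related transcripts, and the gene's other probe sets were under the floor on every array. Acaa1a, a peroxisomal thiolase, was 2.50-fold higher with FGF2, at 866 on the combined array against 346 on the FGF2 array, and had 839 on the IL-17A array against 882 on the UN array. Its other probe set gave 0.01. Dnajc17 had 2086 on the combined array against 946 on the FGF2 array, and 2289 on the IL-17A array against 2078 on the UN array, so here the FGF2 array alone was low, and its other probe set gave a log2 difference of 0.59 with FGF2. Of the 45 higher genes 6 were below 0 without FGF2, and of the 33 lower genes 7 were above it.

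For other genes the folds of both pairs differed in size but not in direction. Nrxn3, which encodes a neurexin, had 1872 on the combined array against 617 on the FGF2 array, a fold of 3.03, and 2014 on the IL-17A array against 1273 on the UN array, a fold of 1.58. Zc3h12a, Saa3, Ccl2, Lif and S100a8 had differences between the readings of 0.74, 0.89, 0.63, 0.63 and 0.70 on the log2 scale. The second probe set of Lif gave much the same in both pairs, 0.75 with FGF2 and 0.66 without. By their brightest probe sets all of these genes had the larger difference with FGF2. Tcl1b3, whose probe set can detect related transcripts, ran the other way, with 1015 on the combined array against 1525 on the FGF2 array, and 395 on the IL-17A array against 1701 on the UN array, 1.5-fold lower with FGF2 and 4.31-fold lower without. With 1 array per group, none of these differences between readings was tested.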

How the data were processed

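RNA of 1 sample per group was hybridised to an Affymetrix 3′ expression array, and how many animals or cultures stand behind a sample is not given in the sources used here. The authors summarised the probes with MAS5, per the submitters' processing notes, and deposited 1 log2 signal per probe set and array. The MAS5 version is not given in the sources used here. Since the method subtracts mismatch signal, low values are noisy. Depth in reads does not apply, and the number of arrays limits the precision.

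Of 45101 probe sets, 64 controls were left out, 34945 had 1 gene symbol in the platform annotation, 932 several and 9160 none. Single symbols were checked through their Entrez numbers in the RefSeq table of GRCm38.p6, which held 34741 of them. Each gene was read from its brightest probe set (mean log2 over the 4 arrays). Signals under the median of all values (log2 6.49, signal 89.8) were raised to it. A fold from or to a raised signal is a lower bound, written "at least". A gene was called at a fold of 2, with no test. The 55 gene lists held 898 entries, of which 96 had no gene.

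The members and lists were chosen with earlier results of these data known. Named genes were the 20 highest and 20 lowest genes past the fold whose other probe sets went the same way, the 10 highest and 10 lowest differences between both readings of IL-17A, genes past the fold in both readings, and list members. Genes outside this rule, such as Gfra2, were named after their values were seen. Clone symbols were counted and not named. Other scalings, floors, folds and probe set choices were tried as alternatives. Python 3.11.15, numpy 2.4.6 and pandas 2.3.3 were used, and the calculations were tested on simulated arrays.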

Additional observations from a re-analysis of the deposited data

Results flagged for a closer look

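The IL-17A difference pointed in opposite directions with and without FGF2, by at least 1.2-fold in each pair of arrays, for 16 named genes. The named genes include those with the largest differences between both readings, so this set was partly chosen by the values it shows. The share of all measured genes that differ in this way is not given here, so the count does not set these genes apart from scatter between single arrays. Each reading is a log2 difference between 2 single arrays, and the difference between the readings was not tested. The value with FGF2 is given first and that without FGF2 after it. Lower with FGF2 and higher without were Rrp9 (-2.11 and 0.35), Dact2 (-1.14 and 0.43), Ces5a (-1.13 and 0.76), Foxp2 (-1.03 and 0.35), Tlx2 (-0.73 and 0.61), Prss2 (-0.66 and 1.15), Cplx1 (-0.64 and 0.76) and Plau (-0.42 and 0.95). Higher with FGF2 and lower without were Myrf (1.06 and -0.46), Wdtc1 (1.02 and -0.28), Fcer1g (1.0 and -0.28), Fbxw22 (0.99 and -0.62), Cyp4f13 (0.69 and -0.89), Unc93b1 (0.67 and -0.77), Nmu (0.55 and -0.64) and S100g (0.37 and -1.20). Rrp9, Myrf and Prss2 were at or near the floor of 89.8 on 1 array of the pair with FGF2. The probe set of Ces5a can detect related transcripts.

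The median log2 difference of 2 lists also changed sign: chemokines of the CXC and CX3C families without ELR gave -0.16 with FGF2 and 0.15 without, and endothelial markers 0.10 and -0.18. Neither difference was tested.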

How the results depend on the processing

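With the floor at the 25th percentile of signals, 282 genes were higher and 279 lower with FGF2, 216 and 250 without it, 33 were lower in both pairs and 22 passed the fold in opposite directions. With the floor at the 75th percentile these were 25 and 9 with FGF2, 20 and 8 without it, and 16 higher and 6 lower in both. With the floor added to every signal, 13 were lower with FGF2, 30 higher and 17 lower without it, and 1 was lower in both. With probe sets of a gene averaged, 68 were lower with FGF2, 46 lower without it, and 4 passed in opposite directions. A fold of 1.5 gave 224 and 252 with FGF2, 176 and 239 without it, 71 and 64 in both and 11 in opposite directions. A fold of 3 gave 17 and 1, 16 and 3, and 14 and 0. Under quantile normalization, median centring and without probe sets open to related transcripts, counts stayed within 1.5 times the main counts. Under all 5 alternative scalings and floors 22 of the 45 higher genes stayed past the fold, among them Cxcl1, Cxcl2, Cxcl5, Il6, Lcn2 and Zc3h12a, and 3 of the 33 lower ones, Apoa1, Apob and Tm4sf4.

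List medians that changed sign were those of small proline-rich proteins with FGF2 (1.26, against -0.02 with the 25th percentile floor and -0.03 without probe sets open to related transcripts), NF-kB inhibitors and feedback with FGF2 (0.25, against -0.03 with the mean of probe sets) and mast cell markers with FGF2 (-0.49, against 0.06 with the 75th percentile floor). Without FGF2, chemokines without ELR (0.15, against -0.06 with the 75th percentile floor) and stem cell markers (0.14, against -0.10 with the mean of probe sets) changed sign. The cause was not tested. No paired analysis was possible because the groups share only 1 replicate number. A fit over both pairs with FGF2 as a term, which would take the difference between the pairs as its error, was not run.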

Other observations

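Lists of general cell functions, like all measured genes, had few large differences with FGF2 present. Glycolysis and hypoxia genes had 17 of 20 measured members above 0 and a median log2 difference of 0.09, with none past the fold (0 of 20), and the highest was Pfkfb3, a regulator of glycolytic flux, with 1490 on the combined array against 1023 on the FGF2 array. Ribosomal protein genes had 20 of 20 members above 0 within a narrow range of 0.03 to 0.21. Cholesterol biosynthesis genes had 14 of 17 members below 0 and a median of -0.10. Without FGF2, 11 of the 17 were above 0, with a median of 0.05. Interferon-stimulated genes had 16 of 24 members below 0, the lowest being Rsad2, an antiviral enzyme, with 534 on the combined array against 957 on the FGF2 array. Cell cycle genes split evenly, 13 above and 15 below 0, and unfolded protein and heat shock genes had a median of 0.01.

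Casp4, an inflammatory caspase that senses bacterial lipopolysaccharide, was 2.14-fold higher with FGF2, with 1207 on the combined array against 565 on the FGF2 array, and the other 11 measured genes of the IL-1 family and inflammasome stayed below the fold. Casp1 had 174 on the combined array against 265 on the FGF2 array. Il1rn, the IL-1 receptor antagonist, had 3474 on the combined array against 2403 on the FGF2 array, and 3826 on the IL-17A array against 2580 on the UN array.

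Among 3075 measured probe sets with several gene symbols or none, 4 passed the fold upwards and 7 downwards with FGF2. Of these, 0 were higher and 1 was lower in both pairs of arrays. A probe set shared by Clca3a2 and Clca3a1 had 1196 on the combined array against 538 on the FGF2 array, and 1277 on the IL-17A array against 664 on the UN array, log2 differences of 1.15 and 0.94.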
